A study of Danio rerio with 54 samples.

Results

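The TGF-beta and activin signaling genes were followed through retinal damage and regeneration in adult zebrafish. Members were the rows whose gene name equalled 1 of 10 chosen symbols in the count tables of the time-course and in the table that also held the naïve retinas. Of these, 8 were found among 15245 genes: the ligand genes tgfb1a, tgfb2, tgfb3, inhbaa and inhbb, the negative regulators tgif1 and smad7, and the induced matrix gene tgfbi. The symbols tgfb1b and skila matched no row and were not analysed here.

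Ligands of the TGF-beta family bind pairs of type II and type I serine/threonine kinase receptors, which phosphorylate the receptor-activated Smad proteins Smad2 and Smad3. These join Smad4 in the nucleus and change transcription. Activins are dimers of inhibin beta subunits, encoded in zebrafish by inhbaa, inhbab and inhbb, and use the same Smads as TGF-beta. The pathway is held in check by secreted traps such as follistatin, by the inhibitory Smad7, which blocks the receptors and is itself induced by them, and by nuclear corepressors such as Tgif1. In the zebrafish retina, Müller glia re-enter the cell cycle after photoreceptor loss and produce progenitors, and TGF-beta family signals are known as regulators of that response.

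Gene expression was measured by 3′ mRNA-Seq, which counts reads near the 3′ end of transcripts, in whole retinas of albino fish aged 6 to 9 months. All 9 groups held 6 retinas. The column names of the naïve retinas carry 1 age near the upper end of this range, and those of the other groups carry none. Naïve fish were kept on a cycle of 14 h light and 10 h dark. The 0 h group was harvested after 5 days of dark adaptation, without the lesion. All other groups were dark adapted in the same way, then given 30 min of intense light followed by up to 3 days under halogen lamps. They were taken at 24, 36 and 72 h post light onset (hpl) or, on the normal cycle again after 72 h, at 5, 10, 14 or 28 days (dpl). The 24 and 36 hpl groups were thus taken during the lamp exposure. The dark-adapted 0 h retinas are therefore the control taken before the lesion, and the naïve retinas the control for dark adaptation. Every group after light had also left the dark. Comparisons with 0 h cannot tell the lesion and the end of darkness apart. Changes from 72 hpl to 5 dpl also span the return from the lamps to the normal cycle, and its part in them was not tested. The time-course was run as 2 experiments with 3 fish per group in each, taken here as replicates 1 to 3 and 4 to 6. Between these experiments, 54.1% of 13075 genes differed over the time-course groups (edgeR adjusted p under 0.05). The experiment of the naïve retinas was not known. The paper calls them age-matched. Comparisons of 0 h or 28 dpl with naïve retinas cannot tell the treatment apart from a difference in experiment or age.

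Counted reads per library ranged from 1111503 to 4040445, apart from 5 dpl replicate 2 with 228611 reads, 9.06% of the median of its 5 companions. Levels below are pseudo-counts, values that the authors had adjusted toward a common library size, and fold changes come from the raw counts. Pseudo-counts are not proportional to reads: tgfb2 in 5 dpl replicate 2 had 0 reads and 0.91 pseudo-counts. Rod and cone markers checked the tissue and the lesion: the summed pseudo-counts of 5 rod genes had a median of 65670 at 0 h and 5801 at 72 hpl, and those of 7 cone genes 47480 and 3375. Microglia markers moved the other way, from a median sum of 1217 (10 genes) at 0 h to 4447 at 72 hpl, with 8 of 10 genes higher by the test. The summed Müller glia markers (8 genes) had medians of 3155 at 0 h, 1828 at 24 hpl and 5187 at 5 dpl. Single genes went both ways at 24 hpl, with 3 of 8 higher and 4 lower, and at 5 dpl 5 were higher and 0 lower. Retinal pigment epithelium markers (7 genes) rose from a median sum of 1589 at 0 h to 4279 at 72 hpl, with 4 of 7 higher by the test, and stood at 5322 at 14 dpl. The summed cornea and epidermis markers (7 genes) had medians of 294 at 0 h and 836 at 24 hpl, where 2 of 7 were higher and 2 lower. Of all genes tested, 19.0% were higher and 17.7% lower at 24 hpl, 22.7% and 20.2% at 72 hpl, and 17.5% and 14.3% at 5 dpl. These marker shifts run beside the members described below. In whole retinas, a change in the number of cells of a type and a change in RNA per cell cannot be told apart, and the part of cell makeup in the members' changes was not tested.

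Most members changed over the time-course, each with its own timing. The activin subunit gene inhbb stood above 0 h at every time after light and peaked at 72 hpl, while inhbaa rose briefly at 24 hpl and was below 0 h at 72 hpl. The ligand gene tgfb3 was lowered at 24 and 36 hpl and stood above 0 h at 10 and 14 dpl. Both negative regulators rose, tgif1 first at 24 hpl and smad7 mainly at 72 hpl. By a joint edgeR quasi-likelihood test over the 8 time-course groups, 6 of 8 members changed (inhbaa, inhbb, smad7, tgfb2, tgfb3 and tgif1), against 58.1% of all 13075 genes tested, so the share of members is not far from that of all genes.

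**Figure D1:**
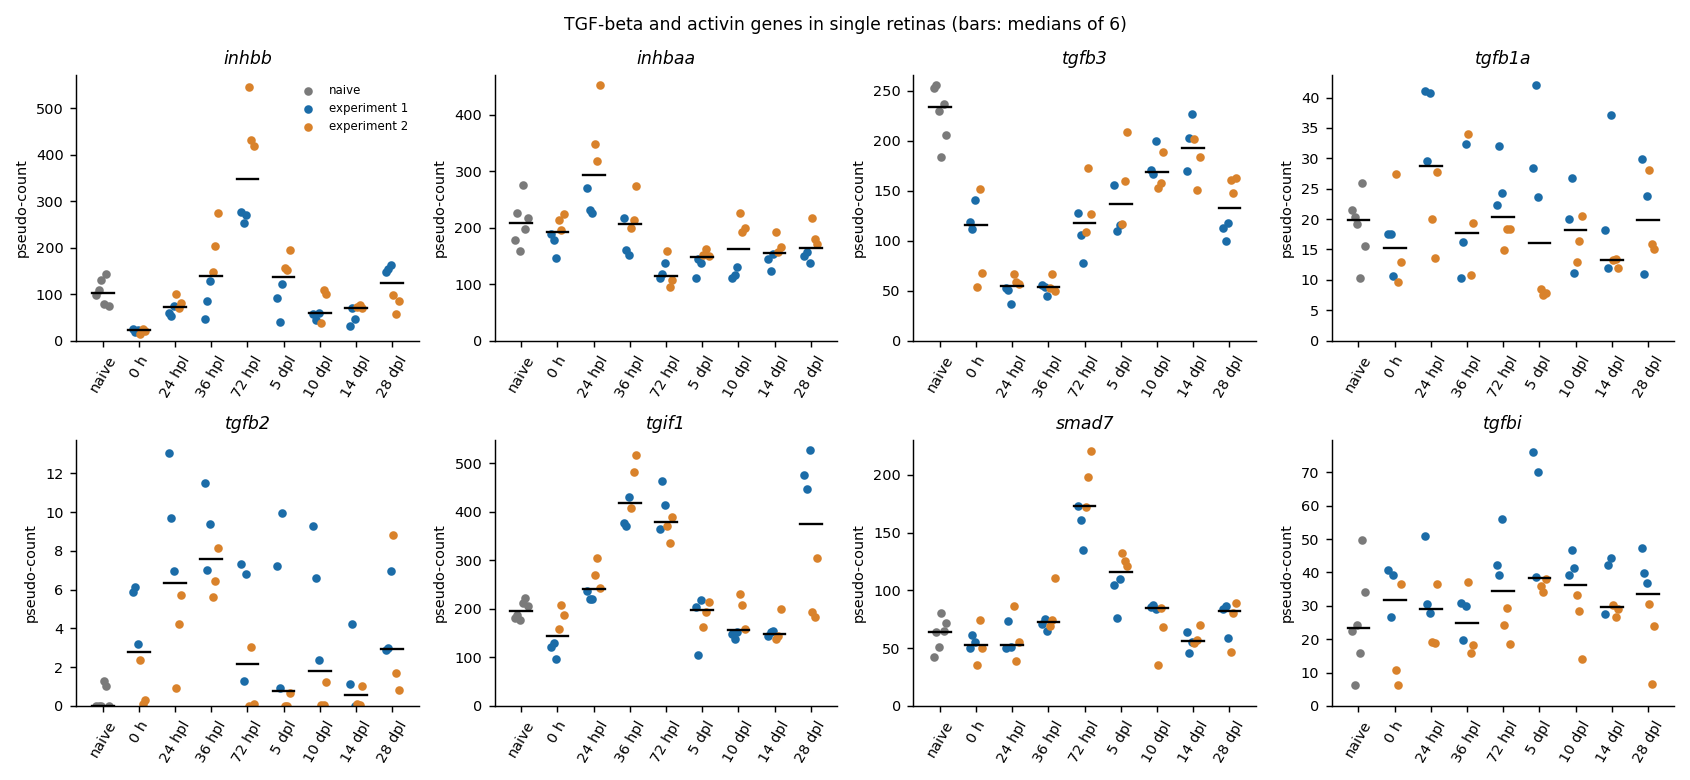
Pseudo-counts of the 8 members (y axes, linear, from 0) in each of 54 retinas by group (x axes). Points are single retinas colored by experiment and bars are medians of 6. The highest median of inhbb and smad7 is at 72 hpl, that of tgfb3 is in naïve retinas, and the 6 tgif1 values at 28 dpl split by experiment.

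Inhbb, the beta B subunit of activin, had the largest change among the members. At 0 h its pseudo-counts ran from 14.1 to 24.8 with a median of 22.4. They rose to a median of 71.7 (53.9 to 101) at 24 hpl and of 138 (47 to 275) at 36 hpl. At 72 hpl the lowest retina had 253, the median was 348 and the highest had 546. The 0 h retinas lay below every retina of all 7 later groups. For 5 dpl replicate 2, the shallow library, this rested on 4 reads of inhbb. In CPM, reads scaled by library total and TMM factor, that library was at 14.5, little above 0 h replicate 5 at 13.1. The log2 fold change against 0 h was 1.75 ± 0.31 (SE) at 24 hpl, 2.71 ± 0.30 at 36 hpl and 4.06 ± 0.30 at 72 hpl, or 16.7-fold (edgeR adjusted p = 9.3e-17).

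After 72 hpl inhbb declined without returning to the 0 h level. Its median was 137 (39.8 to 195) at 5 dpl, 59 (38.8 to 108) at 10 dpl and 69.8 (31.1 to 77.4) at 14 dpl. The 10 and 14 dpl medians were below that of naïve retinas (103), a difference that was not tested. The step from 72 hpl to 5 dpl was a log2 change of -1.50 ± 0.25 (edgeR adjusted p = 1.1e-05), and the step from 5 to 10 dpl was -0.93 ± 0.27 (adjusted p = 0.012). The 10 and 14 dpl levels did not differ beyond their spread (log2 change -0.15 ± 0.28, adjusted p = 0.98). At 28 dpl inhbb stood at a median of 123 (57.6 to 163), 5.78-fold above 0 h (log2 2.53 ± 0.31, adjusted p = 2.1e-08). Its second rise from 14 to 28 dpl, 1.04 ± 0.27 on the log2 scale, passed narrowly (adjusted p = 0.045). That call was lost without any 1 of 8 libraries (14 dpl replicates 1, 3, 4, 5 and 6 and 28 dpl replicates 1, 2 and 3), with values of 0.89 to 1.08, and in experiment 2 alone the step was 0.15 (adjusted p = 0.995).

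Inhbaa, the beta A subunit gene, followed another course. Its pseudo-counts were 146 to 224 (median 192) at 0 h and 226 to 454 (median 294) at 24 hpl, so that all 24 hpl retinas lay above all 0 h retinas. This was a 1.58-fold rise (log2 0.66 ± 0.13, edgeR adjusted p = 4.7e-05). By 36 hpl it was back at a median of 207 (151 to 275). At 72 hpl the values, 95.6 to 159 with a median of 115, overlapped those at 0 h but averaged lower (log2 -0.62 ± 0.13, adjusted p = 1.5e-04). At 5 dpl it remained lower by the test (-0.45 ± 0.14, adjusted p = 0.0082), though in neither experiment alone (-0.44 and -0.46, adjusted p = 0.087 and 0.072). From 10 dpl on it did not pass, with log2 changes of -0.19 to -0.30.

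**Figure D2:**
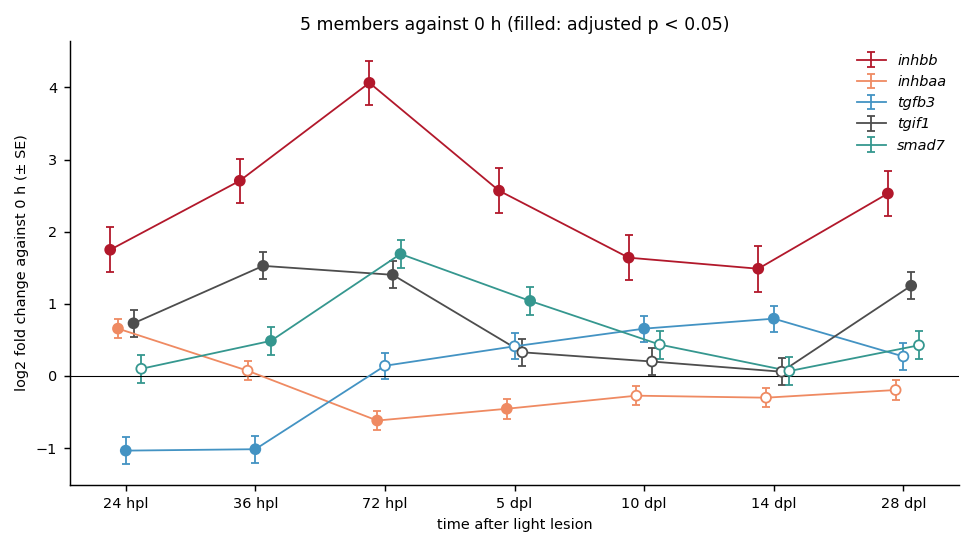
Log2 fold change against 0 h (y axis, edgeR, bars ± SE) of 5 members by time after light (x axis). Filled points passed an adjusted p of 0.05. Inhbb reaches 4.06 at 72 hpl, where smad7 is at 1.69 and inhbaa at -0.62.

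The different courses of both subunit genes changed their proportion within each retina, a measure that does not depend on how libraries are scaled. Inhbb made up 10.1% ± 2.7 (SD, n = 6) of the reads of inhbb and inhbaa together at 0 h. The share was 19.5% ± 3.5 at 24 hpl and 39.9% ± 12.1 at 36 hpl. At 72 hpl it was 74.1% ± 6.5, with a lowest retina at 66.1% against a highest of 13.8% at 0 h. Inhbb reads thus outnumbered inhbaa reads in each of the 6 retinas at 72 hpl and in none at 0 h. The share then stood at 44% ± 14.2 at 5 dpl and at 29.5% ± 7.9 and 27.9% ± 6.7 at 10 and 14 dpl. At 28 dpl it was 40.3% ± 12.4.

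No share in the 7 groups after light overlapped that at 0 h. At 5 dpl the lowest share, 16.0%, was from replicate 2, the shallow library, and rested on 4 reads of inhbb and 21 of inhbaa. Each comparison with 0 h gave the smallest p that an exact 2-sided permutation test of 6 against 6 retinas allows, 0.0022 (also after adjustment over 7 tests). This ratio was chosen after the values of both genes were seen. In naïve retinas it was 33.7% ± 8.9 of the pseudo-counts, above the 10.1% ± 2.7 at 0 h and below the 74.1% ± 6.5 at 72 hpl (both adjusted p = 0.0024, exact permutation test, 10 tests). The share at 28 dpl, 40.3% ± 12.3, did not pass against naïve (difference 6.63 percentage points, exact permutation p = 0.30). That mean joins experiments that did not overlap, and the test did not separate them. Retinas of experiment 1 were at 49.5% to 54.1%, above the highest naïve retina at 44.9%. Those of experiment 2 were at 24.2% to 33.2%, within the naïve range of 22.4% to 44.9%.

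**Figure D3:**
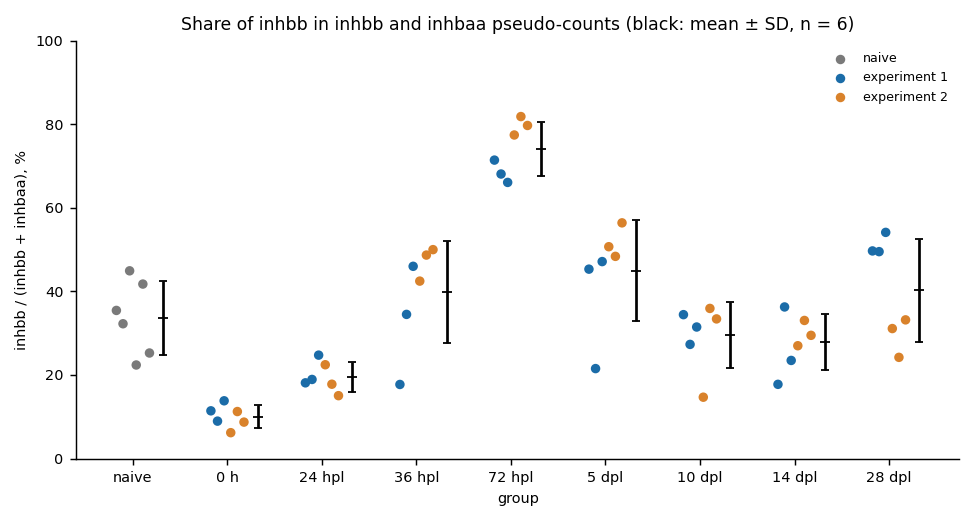
Share of inhbb in the summed pseudo-counts of inhbb and inhbaa (y axis, percent) in each retina by group (x axis), points colored by experiment, black marks mean ± SD of 6. The 0 h retinas lie between 6.19% and 13.8% and the 72 hpl retinas between 66.1% and 81.9%.

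Tgfb3 was the most abundant of the 3 TGF-beta ligand genes found in every group, as judged by 3′ read counts, which do not scale with transcript length. It was lowered early and raised late. Pseudo-counts ran from 53.6 to 152 (median 115) at 0 h, and from 36.7 to 67.1 (median 54.5) at 24 hpl. At 36 hpl they were 44.7 to 66.5 (median 53.4). In pseudo-counts these early groups overlapped 0 h through 1 retina, 0 h replicate 4 at 53.6. In CPM, 0 h replicate 6 at 34.4 also lay below 24 hpl replicate 4 at 34.8 and 36 hpl replicate 5 at 34.6. Both early groups lay below 0 h on average, with log2 changes of -1.03 ± 0.19 and -1.02 ± 0.19 (edgeR adjusted p = 1.2e-05 and 9.4e-06). The recovery between 36 and 72 hpl, to a median of 118 (77.8 to 173), left no overlap between these times (log2 1.16 ± 0.18, adjusted p = 3.4e-06).

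At 10 dpl all 6 retinas, at 153 to 199 pseudo-counts of tgfb3, were above all 0 h retinas (log2 0.66 ± 0.18, edgeR adjusted p = 0.010). At 14 dpl, with 150 to 227 and a median of 193, the change was 0.79 ± 0.18 (adjusted p = 0.0016). By 28 dpl the median was 133 (99.7 to 163) and the difference from 0 h did not pass (0.27 ± 0.18, adjusted p = 0.39). The experiments did not overlap there, with 99.7 to 118 in experiment 1 and 147.5 to 163 in experiment 2. Fitted alone, they gave -0.20 and 0.76 (adjusted p = 0.63 and 0.10), and the difference between them did not pass (adjusted p = 0.25). The 10 dpl call was lost without 0 h replicate 4 (log2 0.49, adjusted p = 0.069) or 0 h replicate 6 (0.53, adjusted p = 0.055). It passed in neither experiment alone (0.50 and 0.85, adjusted p = 0.11 and 0.052). The early fall was larger in experiment 1, -1.35 at 24 hpl and -1.22 at 36 hpl, than in experiment 2, -0.52 and -0.63, where it did not pass alone (adjusted p = 0.18 and 0.065), but the difference between experiments did not pass either (adjusted p = 0.59 and 0.48).

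The other TGF-beta ligand genes were scarce. Tgfb1a, the ortholog of the mammalian TGF-beta 1 gene, had group medians between 13.3 and 28.7 pseudo-counts in all 9 groups. It was highest at 24 hpl, with 13.7 to 41.1 against 9.69 to 27.5 at 0 h, a log2 difference of 0.79 ± 0.35 that did not pass (edgeR adjusted p = 0.069). Over the time-course it did not pass either (adjusted p = 0.41). Its 5 dpl values split by experiment, with 23.7 to 42.1 in experiment 1, which holds the shallow library, and 7.49 to 8.45 in experiment 2.

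Tgfb2 had 0 to 17 reads per library. At 0 h the 6 libraries held 0 to 6 reads (median 2.5). At 36 hpl they held 8 to 14 (median 11.5), the only group with at least 8 reads in every library. Reads are not scaled for depth, and in pseudo-counts the groups overlapped, with 0.0995 to 6.14 at 0 h and 5.62 to 11.5 at 36 hpl. The 36 hpl difference was its 1 call against 0 h (log2 1.69 ± 0.67, edgeR adjusted p = 0.035). The call was lost without any 1 of 6 libraries (0 h replicates 3, 5 and 6 and 36 hpl replicates 4, 5 and 6), with adjusted p = 0.052 to 0.068. In naïve retinas tgfb2 was at 0.0024 to 1.27 pseudo-counts and fell under the filter on low values.

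Tgif1, a homeodomain protein that recruits corepressors to Smad complexes, rose early. Its pseudo-counts were 97.0 to 207 (median 144) at 0 h and 219 to 305 (median 240) at 24 hpl. They were 372 to 518 (median 419) at 36 hpl and 337 to 464 (median 380) at 72 hpl. None of these 3 groups overlapped 0 h. The log2 fold changes were 0.73 ± 0.19, 1.53 ± 0.19 and 1.40 ± 0.19 (edgeR adjusted p = 0.0013, 7.7e-10 and 9.3e-09). Between 72 hpl and 5 dpl tgif1 fell again without overlap, to a median of 199 (106 to 218), a log2 step of -1.07 ± 0.18 (adjusted p = 1.5e-05). At 5, 10 and 14 dpl it did not pass against 0 h (log2 0.33, 0.20 and 0.06).

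At 28 dpl tgif1 was called higher than 0 h again (log2 1.25 ± 0.19, edgeR adjusted p = 2.9e-06), but its retinas divided by experiment. Experiment 1 had 477, 447 and 527 pseudo-counts, as high as at 36 and 72 hpl. Experiment 2 had 194, 184 and 304, which overlapped the 159 to 207 of its own 0 h retinas. Fitted alone, experiment 1 gave a log2 change of 2.03 (adjusted p = 2.6e-09) and experiment 2 gave 0.27 (adjusted p = 0.47). The difference between experiments was -1.75 ± 0.26 (adjusted p = 4.8e-05), the 1 such difference that passed among 56 tested for the members, and 0.451% of all genes passed at 28 dpl. The rise of tgif1 at 28 dpl was thus seen in 1 experiment of 2.

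**Figure D4:**
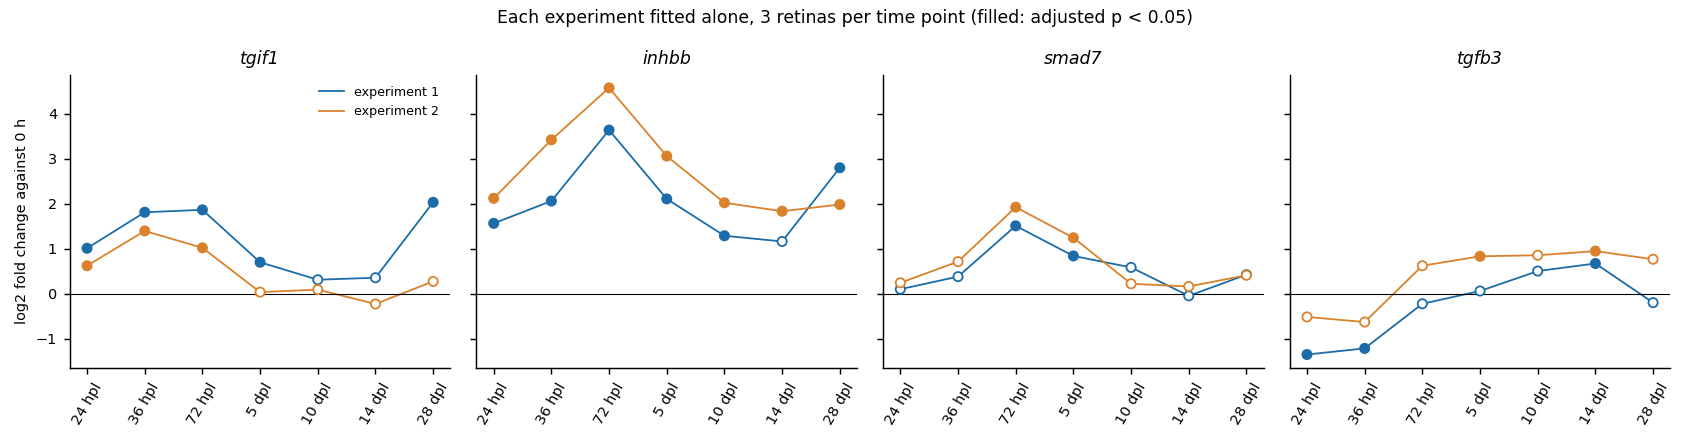
Log2 fold change against 0 h (y axis, edgeR, each experiment fitted alone, 3 retinas per group) of 4 members by time after light (x axes). Filled points passed an adjusted p of 0.05. At 28 dpl tgif1 is at 2.03 in experiment 1 and at 0.27 in experiment 2.

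Smad7, the inhibitory Smad, peaked with inhbb. Its pseudo-counts were 35.0 to 74.5 (median 52.9) at 0 h and 38.8 to 86.3 (median 53.1) at 24 hpl, with no call (log2 0.10 ± 0.20, edgeR adjusted p = 0.73). At 72 hpl they were 135 to 221 (median 173), above every retina at 0 h, at 36 hpl and at 5 dpl. The log2 change against 0 h was 1.69 ± 0.19, or 3.23-fold (adjusted p = 8.3e-11), and the step from 36 to 72 hpl alone was 1.2 ± 0.18 (adjusted p = 9.5e-07). At 5 dpl smad7 was still 2.06-fold above 0 h (adjusted p = 2.3e-05), with a median of 116 (76.0 to 132). These groups did not overlap in pseudo-counts, where the highest 0 h retina, replicate 5, had 74.5. The lowest 5 dpl value, 76.0, was from replicate 2, the shallow library, and rested on 10 reads of smad7. In CPM, reads scaled by library total and TMM factor, the groups overlapped. There the shallow library was at 36.3, below 0 h replicate 5 at 39.2. At 10, 14 and 28 dpl smad7 did not pass (log2 0.44, 0.07 and 0.43).

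The smaller smad7 difference at 36 hpl (log2 0.49 ± 0.19, edgeR adjusted p = 0.033) rested on few retinas. It was lost without 36 hpl replicate 6, which had 111 pseudo-counts against 64.6 to 75.4 in the other 5 (log2 0.37, adjusted p = 0.12), and without 0 h replicate 1 or 4 (0.47 and 0.44, adjusted p = 0.055 and 0.066).

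Tgfbi encodes a secreted matrix protein named for its induction by TGF-beta in mammalian cells. Its values varied widely at 0 h, from 6.30 to 40.8 with a median of 31.7. They ran from 34.2 to 76.3 (median 38.4) at 5 dpl, the 1 time it was called (log2 0.94 ± 0.29, edgeR adjusted p = 0.0090). The groups overlapped, and the highest 2 values at 5 dpl, 76.3 and 70.1, were from experiment 1. The shallow library, with 5 reads of tgfbi, stood at 38.8, and without it the change was 1.0 ± 0.29 (adjusted p = 0.0050). The joint test over the time-course did not pass with all libraries (adjusted p = 0.062) and passed without the shallow library (0.038).

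Counted by time, 3 of 8 members were higher than 0 h and 1 lower at 24 hpl, where 19.0% and 17.7% of all tested genes were. At 36 hpl 4 were higher and 1 lower, beside 23.6% and 23.4% of genes. At 72 hpl 3 were higher and 1 lower, beside 22.7% and 20.2%, and at 5 dpl again 3 and 1, beside 17.5% and 14.3%. Later, at each of 10, 14 and 28 dpl 2 members were higher and 0 lower, where 7.06%, 8.5% and 4.72% of genes were higher and 2.85%, 4.67% and 3.36% lower. All 7 comparisons share the 0 h retinas. The median log2 change of the 8 members was 0.69, 0.43 and 0.42 at 24, 36 and 72 hpl and 0.37, 0.28, 0.08 and 0.38 at 5, 10, 14 and 28 dpl, while that of all tested genes lay between -0.10 and 0.00.

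Between the controls, the ligand genes inhbb and tgfb3 differed, while inhbaa and tgfb1a did not pass (log2 -0.12 and -0.25, limma adjusted p = 0.50 and 0.53). Inhbb was 73.7 to 142 pseudo-counts (median 103) in naïve retinas, above all 0 h retinas, a log2 difference of 0 h against naïve of -2.26 ± 0.24 (limma on log2 of the pseudo-count plus 1, adjusted p = 1.5e-07). Tgfb3 was 184 to 255 (median 233) in naïve retinas, also above all at 0 h (-1.16 ± 0.21, adjusted p = 7.5e-05). These were the 2 members called lower of 7 tested, 0 were called higher, and 26.9% and 26.5% of genes were called lower and higher. Inhbb at 0 h was therefore at the lowest median of its 9 groups, and the rises given above start from that level.

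At 28 dpl inhbb did not pass against naïve, with 57.6 to 163 against 73.7 to 142 pseudo-counts (log2 0.11 ± 0.24, limma adjusted p = 0.74). That estimate averages experiments that did not overlap: the retinas of experiment 1, at 148 to 163, lay above every naïve retina, and those of experiment 2 were at 57.6 to 98.1. Tgfb3 was lower than in naïve retinas without overlap (-0.78 ± 0.21, adjusted p = 0.0059), and tgif1 was higher (0.73 ± 0.23, adjusted p = 0.016). Thus 1 of 7 members was higher and 1 lower, beside 19.7% and 17.6% of genes. For tgif1, the experiment 1 retinas (447 to 527) and replicate 6 of experiment 2 (304) lay above the highest naïve retina (222). Replicates 4 and 5 of experiment 2, at 194 and 184, lay within the naïve range of 177 to 222. The naïve libraries had larger pseudo-count totals, 2497761 to 2707270 against 1513697 to 2443195 in the time-course. Brought to equal totals, all log2 differences rose, the median of all genes by 0.45 for 0 h and 0.34 for 28 dpl. Inhbb and tgfb3 stayed lower at 0 h (-1.80 and -0.69), the 28 dpl difference of tgfb3 no longer passed (-0.43, adjusted p = 0.10), inhbaa at 0 h turned from -0.12 to 0.35 (adjusted p = 0.023), and smad7 at 28 dpl became 0.59 (adjusted p = 0.029). Inhbb at 28 dpl became 0.46 and still did not pass (adjusted p = 0.16).

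Levels also differed between the experiments within time points. With tgfb2 left out, the 3 retinas of each experiment did not overlap in 24 of 56 pairs of member and time, beside 31.2% of such pairs over all tested genes. Inhbb at 72 hpl was 253 to 278 in experiment 1 and 419 to 546 in experiment 2, yet its rise passed in each alone (log2 3.63 and 4.57, edgeR adjusted p = 7.9e-10 and 2.7e-12). The 72 hpl rises of tgif1 (1.86 and 1.02) and smad7 (1.51 and 1.92) also passed in each. The fall of inhbaa at 72 hpl did as well (-0.46 and -0.77, adjusted p = 0.032 and 0.0024).

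The rest of the pathway was examined in lists of ligands, latency and activation factors, inhibitors, receptors, Smads, brakes, targets and the neighboring BMP arm. Of 69 further genes found, 62 were tested, and 31 changed over the time-course by the joint test, a smaller share than the 58.1% of all genes. At 72 hpl 10 were higher than 0 h and 8 lower, also smaller shares than the 22.7% and 20.2% of all genes. At 28 dpl 0 were higher and 1 lower, beside 4.72% and 3.36% of all genes. Of 6 extracellular and membrane inhibitors tested, 4 were higher and 0 lower at 72 hpl, where 22.7% of all genes were higher, with a median log2 change of 1.23 beside -0.04 for all genes. At each of 24 hpl, 36 hpl, 5 dpl and 14 dpl 2 were higher, beside 19.0%, 23.6%, 17.5% and 8.5% of all genes. At 10 dpl 1 was higher and at 28 dpl 0, beside 7.06% and 4.72%, and 0 were lower at any time.

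Among those inhibitors, bambia, a pseudoreceptor that blocks TGF-beta family receptors, was 31.5 to 93.2 pseudo-counts (median 46.2) at 0 h and 120 to 224 (median 157) at 72 hpl, without overlap (log2 1.67 ± 0.20, edgeR adjusted p = 6.3e-10). Fsta, a follistatin that traps activin, was 20.3 to 38.2 at 0 h and 51.7 to 99.3 at 72 hpl (1.33 ± 0.30, adjusted p = 2.1e-04). Its paralog fstb was higher at 24 and 72 hpl (0.94 and 1.12), and the follistatin-like gene fstl1b from 24 hpl to 10 dpl (0.89 to 1.71) and at 14 dpl (0.77), where the call was lost without any 1 of 5 libraries (0 h replicates 2, 4 and 5 and 14 dpl replicates 3 and 5, adjusted p = 0.062 to 0.18). The 24 hpl call of fstb was lost without 0 h replicate 1 or 3 or 24 hpl replicate 4 or 6 (adjusted p = 0.060 to 0.097). The group means of these 3 genes were highest at 72 hpl, the time of the inhbb peak, at 70.2 for fsta, 58.7 for fstb and 52.8 for fstl1b. The scarce fstl1a had its highest group mean, 7.48, at 24 hpl against 6.02 at 72 hpl and passed at no time. Fstl3 had group means of at most 1.13, in naïve retinas, and was not tested.

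Of the 8 receptor genes tested, 2, acvr2aa and tgfbr3, were lower at each of 24, 36 and 72 hpl and 5 dpl. At these times 17.7%, 23.4%, 20.2% and 14.3% of all genes were lower. Acvr2aa, a type II activin receptor, was 182 to 293 pseudo-counts (median 215) at 0 h and 93.6 to 136 (median 111) at 72 hpl, without overlap (log2 -0.96 ± 0.13, edgeR adjusted p = 1.7e-08), and was also lower at 24, 36 hpl and 5 dpl. The coreceptor gene tgfbr3 was lower at the same 4 times (-0.52 to -1.23). Its 24 hpl call was lost without any 1 of 6 libraries (0 h replicates 2, 4 and 6 and 24 hpl replicates 1, 4 and 6, adjusted p = 0.051 to 0.28) and its 5 dpl call without 0 h replicate 4 or 5 dpl replicate 6 (0.068 to 0.076). The BMP and TGF-beta type I receptor gene acvrl1, named after its values were seen, was the 1 receptor gene called higher, at 5 dpl only (log2 2.15 ± 0.76, adjusted p = 0.025), with 0.86 to 31.7 pseudo-counts against 0.086 to 6.13 at 0 h, and that call was lost without 0 h replicate 4 or 5 or 5 dpl replicate 2 or 6 (0.057 to 0.10). Smad3a, which carries the TGF-beta and activin signal, was 197 to 316 (median 249) at 0 h and 64.4 to 126 (median 107) at 36 hpl (-1.30 ± 0.15, adjusted p = 2.5e-10), and lower from 24 hpl to 5 dpl. Smad3b was lower at 36 hpl, 5 dpl and 28 dpl (-0.81, -0.72 and -0.94) and smad2 at 36 hpl (-0.42). The inhibitory Smad gene smad6a was higher at 72 hpl (0.87 ± 0.28, adjusted p = 0.010), the time of the smad7 peak. Of 9 Smad list genes 1 was higher and 1 lower at 72 hpl, and of 8 receptors 0 and 2, beside 22.7% and 20.2% of all genes. The receptors' median log2 change was -0.21 at 24 hpl, -0.04 at 36 hpl, 0.20 at 72 hpl and 0.37 at 5 dpl, and that of the Smad list -0.34, -0.53, -0.07 and -0.03.

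Of the other ligand genes, inhbab, the second beta A subunit gene, was lower at 24 hpl, 36 hpl, 10 dpl and 14 dpl (log2 -0.68, -1.05, -0.84 and -0.73) and mstnb, a myostatin gene, at 24 and 36 hpl (-0.79 and -0.70). At 72 hpl inhbab was at 89.1 to 152 pseudo-counts against 66.6 to 122 at 0 h and did not pass (0.42 ± 0.23, edgeR adjusted p = 0.14). With inhbab in the total, the share of inhbb was 7.09% ± 1.9 at 0 h and 59.5% ± 6.0 at 72 hpl (SD, n = 6).

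Among genes listed as targets, 3 were higher before inhbb peaked. The AP-1 subunit gene junbb was 23.5 to 89.3 pseudo-counts at 0 h and 753 to 1057 at 24 hpl (log2 3.86 ± 0.20, edgeR adjusted p = 3.7e-23), and its paralog junba was higher too (3.14). The fibronectin gene fn1b was higher at 24 and 36 hpl (1.1 and 0.48). The collagen gene col1a1a ran from 0.27 to 31.8 (median 19.8) at 0 h and from 23.7 to 179.7 (median 92.1) at 72 hpl, the 1 time it passed (log2 2.30 ± 0.44, edgeR adjusted p = 2.3e-05), with the groups overlapping. Of 10 target genes tested, 3 were higher at each of 24 and 36 hpl and 4 at each of 72 hpl and 5 dpl, beside 19.0%, 23.6%, 22.7% and 17.5% of all genes. None was lower, and 0 were called from 10 dpl on. The junb genes also respond to other injury signals, and the source of their rise was not tested. Among brakes, the ubiquitin ligase gene smurf1 was lower from 24 hpl to 5 dpl (-0.46 to -0.81), while skia, skib and pmepa1 passed the joint test but no comparison with 0 h (joint adjusted p = 0.0019, 0.0059 and 0.028). In the BMP arm, the type I receptor gene bmpr1aa was lower at 24, 36 and 72 hpl (-0.92, -1.05 and -0.79). The type II receptor gene bmpr2b was lower at 24 hpl (-0.49) and higher at 72 hpl and 5 dpl (0.61 and 0.57). Bmpr2a was lower at 24 hpl (-0.68), and the ligand gene bmp2b was higher at 36 hpl (1.58 ± 0.45, adjusted p = 0.0027). Of 3 genes for latency and activation 1 was called against 0 h, the fibrillin gene fbn2b, named after its values were seen, which was lower at 72 hpl (-0.92 ± 0.29, adjusted p = 0.0076).

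**Figure D5:**
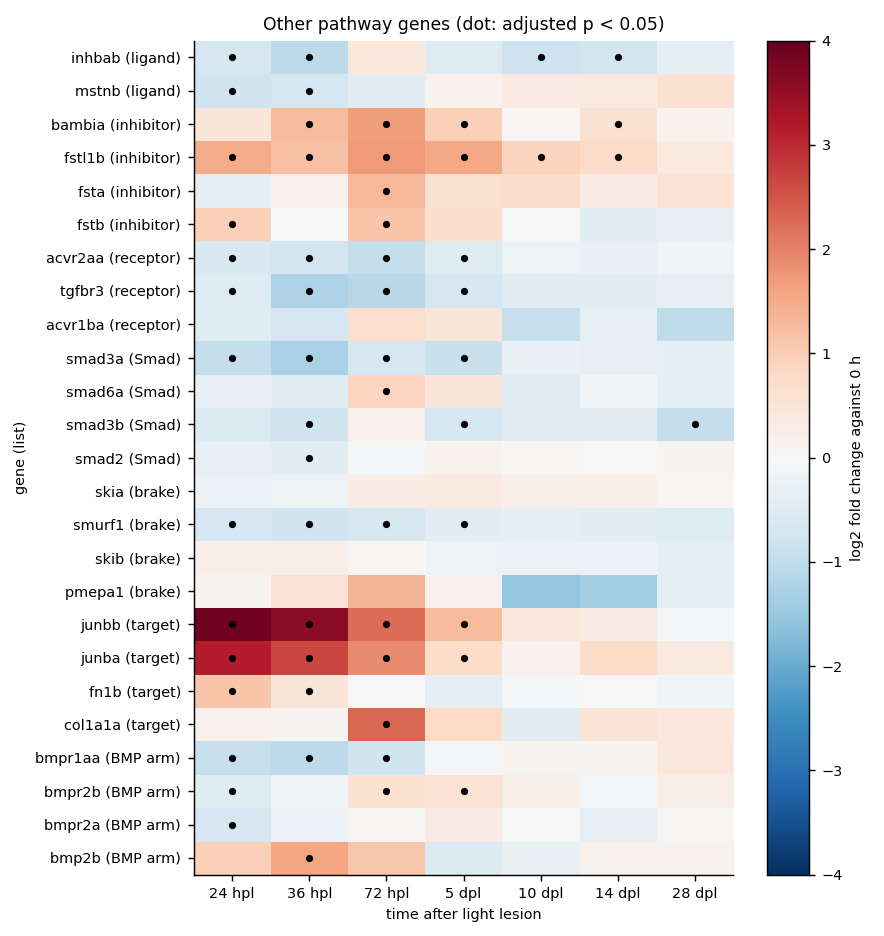
Log2 fold change against 0 h (color, edgeR) of up to 4 genes per pathway list with the smallest joint p (rows, list in parentheses) by time after light (columns). Dots mark an adjusted p under 0.05. The targets junbb and junba lead at 24 hpl with 3.86 and 3.14, and the inhibitors bambia and fstl1b reach 1.67 and 1.71 at 72 hpl.

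The calls of the other pathway genes at late times rested on few libraries. Leaving out 1 library moved their number between 0 and 4 at 14 dpl (3 with all libraries, the inhibitors bambia and fstl1b and the ligand gene inhbab) and between 0 and 2 at 28 dpl (1, smad3b, lost without 28 dpl replicate 2 or 4). At 5 dpl it fell from 14 to 8 without 5 dpl replicate 6 and was at least 11 otherwise. Of 61 calls against 0 h of the genes named above, 18 were lost without at least 1 library, none of them at 72 hpl, and 0 changed sign. Besides those given above, these were bmpr2b, inhbab and mstnb at 24 hpl, fn1b, mstnb and smad2 at 36 hpl, junba, smad3b and smurf1 at 5 dpl, inhbab at 10 dpl, and at 14 dpl bambia (lost without any 1 of 9 libraries, adjusted p = 0.050 to 0.19) and inhbab (7 libraries, 0.052 to 0.11).

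Against naïve retinas, 13 of 53 other pathway genes tested were higher at 0 h and 7 lower, beside 26.5% and 26.9% of all genes, and 11 and 4 at 28 dpl, beside 19.7% and 17.6%. Brought to equal totals, the counts were 26 and 3 at 0 h and 20 and 3 at 28 dpl. That scaling moved all genes upward: the median log2 difference of 11700 genes became 0.47 at 0 h and 0.38 at 28 dpl. Of these genes, 6408 and 4608 were called in either direction, and their split by direction was not counted. Of the genes named above, bambia, junbb and junba were lower at 0 h without overlap (log2 -1.50, -1.55 and -1.44, limma), and with equal totals (-1.03, -1.07 and -0.97) they also passed. Mstnb and smurf1 were lower as deposited (-0.93 and -0.82) but did not pass with equal totals (-0.46 and -0.34). Tgfbr3, smad3b, bmpr2a and bmpr2b were higher (0.9, 1.1, 0.85 and 0.48), also with equal totals. At 28 dpl bambia, junbb and smurf1 were below naïve without overlap (-1.29, -1.46 and -1.29) and passed with equal totals too (-0.94, -1.11 and -0.93). Junba was lower as deposited (-0.99) but did not pass with equal totals (-0.65). Tgfbr3 was above naïve without overlap (0.65). With overlap, fstl1b, bmpr2a, bmpr2b, bmpr1aa, skia and smad2 were also higher (1.40, 0.89, 0.78, 0.62, 0.41 and 0.39). Tgfbr3 and these genes passed with equal totals too. Marker lists differed between the same groups, counted on values as deposited and not with equal totals. At 0 h 6 of 7 Müller glia markers tested, 5 of 7 pigment epithelium and 3 of 4 erythrocyte markers were lower than in naïve retinas. Of 7 cone markers 4 were lower and 1 higher, of 5 rod markers 2 and 1, and of 6 cornea and epidermis markers 1 and 3. Of 6 microglia markers 1 was lower, and of 6 vessel markers 4 were higher. Beside these, 26.9% of all genes were lower and 26.5% higher. The part of these cell types in the differences above was not tested.

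Across the 48 time-course libraries, the genes most like each member by Pearson's r of log2 CPM were found as a description, since libraries of a group and an experiment share their levels. For inhbb these were the chromatin remodeling gene smarce1 (r = 0.87), the transcription factor gene tcf12 (0.85) and the glial filament gene gfap (0.84). For smad7 they were crabp1a, robo3 and hmgn2 (0.86, 0.85 and 0.82). For tgif1 they were the transcription factor gene nfil3, serf2 and mlx (0.78, 0.76 and 0.75). For tgfb3 they were si:ch73-28h20.1, hmga1b and phactr4b (0.86, 0.85 and 0.85), and for inhbaa pho, pxk and cflara (0.80, 0.76 and 0.75). For the scarce members r stayed at or below 0.71: polr3a, cds2 and gnl1 for tgfb1a (0.65, 0.63 and 0.61), cfb, caly and tpp1 for tgfb2 (0.71, 0.69 and 0.67), and nrp1a, vtg7 and serpinb1l3 for tgfbi (0.61 for each). Among members, inhbb went most closely with smad7 (r = 0.75) and tgif1 (0.71), and inhbaa most inversely with tgfb3 (-0.56) and smad7 (-0.53).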

How the data were processed

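Retinas of 54 fish were sequenced as 3′ mRNA-Seq libraries, 6 in each of 9 groups taken from the sample labels. Per the labels and methods, the authors used STAR for alignment, HTSeq for counting and edgeR for normalization, versions not given in the sources used here. The deposited counts are whole reads per gene of the 48 time-course libraries. The deposited pseudo-counts, a signal that the authors adjusted toward a common library size, cover all 54 libraries and gave the levels, since the naïve libraries were available here in that form only. The authors' own fold changes, likelihood ratios and p-values in the same tables were not used. Of the pseudo-count table, 12 entries that held a date instead of a gene name were left out.

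The 48 time-course libraries were fitted together to their counts in edgeR 4.0.16 (R 4.3.3), with TMM scaling, group and experiment as terms, and the quasi-likelihood test. Comparisons with naïve retinas used limma 3.58.1 with a trended prior on log2 of the pseudo-count plus 1, over 18 libraries and without experiment. Both required a value of 5 or more in 6 or more libraries, which 13075 and 11700 genes met. P-values were Benjamini-Hochberg adjusted over all of them, with a threshold of 0.05. The SE of an edgeR fold change was taken from its F value. Shares of inhbb were compared by exact permutation tests (SciPy 1.17.1). The edgeR fit by group and the limma fit were tested on simulated data. Alternatives were DESeq2 1.42.0, other size factors, filters, pseudocounts and terms, each experiment alone, and leaving out each library. Intervals and SEs cover the spread between single retinas of separate fish.

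Replicates 1 to 3 and 4 to 6 were taken as the 2 experiments from the naming of the study's raw files. Named were all members, up to 4 genes per pathway list with the smallest joint p, and the 3 genes most correlated with each member. The members, gene lists and tests were chosen with earlier results of these data known. Lists used older symbols where the files did, and 1 target gene is not reported here. Pairwise checks within groups found no pair that agreed within sampling noise (chi-square per degree of freedom at least 2.76).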

Additional observations from a re-analysis of the deposited data

Results flagged for a closer look

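The rise of tgif1 at 28 dpl differed between the experiments: the log2 change against 0 h was lower by 1.75 in experiment 2 than in experiment 1 (-1.75, edgeR adjusted p = 4.8e-05), with all 3 retinas of experiment 1 above all 3 of experiment 2. Of 72 groups of 6 values, 5 held 1 retina far from the other 5 by Dixon's test, about as many as the 1 in 20 that chance flags. Tgfb1a at 14 dpl was 37.1 pseudo-counts in replicate 3 and 12 to 18.3 in the others. Tgfb2 at 14 dpl was 4.22 in replicate 2 and at most 1.15 in the others. Tgif1 at 14 dpl was 199 in replicate 6 and 138 to 154 in the others. Smad7 was 111 in 36 hpl replicate 6, against 64.6 to 75.4, and 35.6 in 10 dpl replicate 4, against 68.6 to 87.2.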

How the results depend on the processing

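The count of members called kept within 1.5 times under DESeq2, other size factors, no low count filter and limma on pseudo-counts for all 8 time-course results, and under the alternatives for the naïve comparisons. It moved at 36 hpl from 5 to 3 in experiment 1 alone and 2 in experiment 2 alone, at 5 dpl from 4 to 2 with no experiment term, at 10 dpl from 2 to 1 in experiment 2 alone, at 14 dpl from 2 to 1 in experiment 1 alone, and at 28 dpl from 2 to 1 in experiment 2 alone. Fewer libraries enter the fits of 1 experiment, and in experiment 2 alone tgfb2 fell under the low count filter. Leaving out each library in turn gave 3 to 5 members at 36 hpl and 1 to 3 at 10 dpl (1 without 0 h replicate 4 or 6, through tgfb3). No value of a called member changed sign. A kept count can still hold other members. At 10 dpl in experiment 1 alone, tgfb3 no longer passed and inhbaa did (edgeR adjusted p = 0.11 and 0.048). At 5 dpl inhbaa passed in neither experiment alone (0.087 and 0.072) and tgfbi not in experiment 2 (0.13). There tgif1 passed in experiment 1 (0.0057) and tgfb3 in experiment 2 (0.018). At 24 hpl tgfb1a passed in experiment 1 (0.025). The 14 dpl difference of inhbb from 0 h did not pass in experiment 1 alone (log2 1.16, edgeR adjusted p = 0.058). With no experiment term, inhbaa and tgfbi at 5 dpl and tgfb2 at 36 hpl no longer passed (-0.43, 0.86 and 1.34), and with limma on pseudo-counts the inhbb steps from 24 to 36 hpl and from 5 to 10 dpl did not (0.82 and -0.82).

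Replicate numbers name separate fish. With group and experiment means removed, same-numbered libraries of different groups had a median correlation of -0.0064 over 2000 genes, and 5 of 48 libraries were closest to their own number. A replicate block left 6 members called over the time-course and ended 1 single call, inhbb from 14 to 28 dpl (1.05, adjusted p = 0.054). Depth limits tgfb2, tgfb1a and tgfbi most, whose libraries held few reads.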
